A study of Homo sapiens with 2 samples.

Results

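Head-to-head overlapping pairs are neighbouring protein-coding genes on opposite strands whose 5' ends run across each other, so that each gene starts inside the other and neither contains the other. The rule for members used GENCODE 29 gene spans alone and no count, though it was chosen with earlier results of these data known. A protein-coding gene off chromosome Y met the rule when its span overlapped exactly 1 opposite-strand protein-coding gene, at the 5' ends only. Of 19906 such protein-coding genes, 1389 met the rule, in 882 pairs. In 507 reciprocal pairs both genes met it, and in 375 pairs the partner also overlapped a further opposite-strand coding gene. The pairs held 1739 genes, of which 1730 had a row in the table of 58347 genes and 9 had none.

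The assay was eCLIP of U2AF2 in HEL, a human erythroleukemia cell line. Ultraviolet light bonds RNA to the proteins that touch it, an antibody pulls down 1 protein, and the RNA that comes with it is sequenced. The samples formed 1 group of 2 biological replicates of cells given no treatment, with no other condition, and input or control libraries were not analysed here, so no value is an enrichment over input. The gene counts summed to 995428 in replicate 1 and 1350116 in replicate 2.

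U2AF2 is the larger protein of the U2AF heterodimer, which acts in splicing. It binds the run of pyrimidines that ends an intron, just before the AG of the 3' splice site, while the small subunit U2AF1 reads the AG. Head-to-head genes can share a promoter region from which RNA is made in both directions. Where their 5' ends overlap, the first exons and introns of one gene lie over those of the other, and a read from the overlap can be credited to either gene.

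Whether the counts kept strand is not given in the sources used here. For any gene of a pair it is therefore uncertain which of the 2 strands its reads came from. A count that ignores strand puts reads on exons of both genes into the tally of ambiguous reads, which was 1.79% of the gene counts in replicate 1 and 1.77% in replicate 2. Levels below are CPM, gene counts scaled to the size of the library. A gene at 0 may still lie anywhere below 2.98 CPM in replicate 1 or 2.25 CPM in replicate 2, the level of 3 counts. Intervals and floors cover counting error only. Among markers of the line, the 8 erythroid genes held 55 and 102 counts in total, with TAL1, a transcription factor of blood cell formation, at 22 and 28 and GATA1 at 6 and 14. The 5 megakaryocyte genes held 316 and 422, of which GP1BA, a platelet receptor gene and a member here, held 312 and 413, and PF4 held 0. Of 5 markers of other cells, 3 held 0 and all 5 together held 7 and 11. With the strand uncertain these counts do not measure how much of each RNA the cells made.

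The sequences that bear on the pairs are 3' splice sites of one gene that lie within exons of the other. A site was counted for a gene when the 30 intronic bases before the partner's splice site fell wholly inside the gene's merged exons. There were 215 such sites. The transcripts of the overlying gene gave the sequence of 212, and 207 of these ended in AG (97.6%). The sites below are those of MFSD11 and ABCB9, the only 2 of the 12 leading pairs whose leading gene carried one, followed by 6 more sites under genes with many counts, chosen after their values were seen. Each is written 5' to 3' on the strand of the named intron's gene, 27 intronic bases and then 3 exonic bases, from GENCODE 29 transcripts (GRCh38). Capitals mark the longest run of pyrimidines and the final AG of the intron.
SRSF2 site within MFSD11: cgctgtgcttgctcgTCCCgcccgcAGccc
ARL6IP4 site within ABCB9: gctcaagcgcgTCTTCTTCgtcgccAGccc
PSMC5 site within FTSJ3: tgaccactgtgTCTgtttgccatctAGttc
RAB2B site within TOX4: attccgggagtgtgCTTTCTCTTTCAGgtg
FHOD1 site within SLC9A5: tgactctgcccatccctgTTTCCCCAGcgc
SMC4 site within IFT80: gaaTTTCCgttcgagtttgtattttAGgcg
YRDC site within C1orf122: atggatttaTTCTTCTgtgtttcccAGata
IDUA site within SLC26A1: actgagccgCCCCTTTgttgtccccAGccc

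The SRSF2 site lies at chr17:76736462-76736491 on the minus strand, 909 bases from the start of SRSF2, and 5 annotated SRSF2 transcripts use it. MFSD11 held 4064 and 5958 counts. The ARL6IP4 site lies at chr12:122981102-122981131 on the plus strand and is used by 16 annotated transcripts, and ABCB9 held 1832 and 2287 counts. The PSMC5 site (chr17:63829825-63829854, plus strand) is used by 12 transcripts. The RAB2B site (chr14:21476597-21476626, minus strand) has the longest unbroken run of the 8, with 11 pyrimidines. TOX4, the gene over it, also overlaps a further opposite-strand coding gene. The FHOD1 site lies at chr16:67238126-67238155 on the minus strand, the SMC4 site at chr3:160399618-160399647 on the plus strand, the YRDC site at chr1:37807213-37807242 on the minus strand and the IDUA site at chr4:987782-987811 on the plus strand.

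Sites of the same kind also lay under genes with almost no counts. These 4, again chosen after their values were seen, are written in the same way.
ZNF575 site within ETHE1: gtcccagcccagaTCCTTCTCCCTCAGact
RETREG3 site within TUBG1: atgaTTTCCCTCggcatcgctcctcAGgca
WFDC10B site within WFDC13: cgCTTTTgaaatgtttctgatgaacAGact
S100A1 site within S100A13: gctcaCTTCCatgatgggggtgggtAGgtg

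ETHE1 (site at chr19:43526400-43526429), TUBG1 (chr17:42609725-42609754) and WFDC13 (chr20:45704559-45704588) held 0 counts in both libraries, and S100A13 (chr1:153630482-153630511) held 1 and 0. The site within ETHE1 has 12 pyrimidines in a row, more than any of the 8 sites written above. Other partner sites within the same high-count genes have runs as long or longer, with 12 in MFSD11, 14 in ABCB9 and 17 in SLC26A1. The written sites therefore do not show how run length relates to counts. For each gene and partner 1 site was taken, the one used by the most annotated transcripts, so a gene with 2 partners entered once for each. Pyrimidines made up a median of 72% of the 25 bases before the AG in 113 entries with 10 counts or more in both libraries. In the 45 entries below that the median was 68%. The quartiles were 64% to 76% and 60% to 76%. Across all 158 entries with a sequence the Spearman rho of counts with the pyrimidine share was 0.166. With the number of annotated transcripts that use the site it was 0.385. Both are descriptions across entries that share the same 2 libraries, and a few of them share a gene.

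The first question was how many counts these genes held. Of the 1382 genes that met the rule and had a row, 593 reached 10 counts in both libraries (42.9%), against 24.9% of all protein-coding genes. Their median was 17 counts over both libraries (7 in replicate 1 and 10 in replicate 2), against 4 for all 19772 protein-coding genes and 3 for 15132 genes with no opposite-strand coding gene over their span. The other 348 genes, partners that overlap a further coding gene, had a median of 95.5, and 74.7% of them passed 10 counts in each library. Both kinds together, 1730 genes, had a median of 23 and 853 passing, and they carried 9.70% of the gene counts in replicate 1 and 9.56% in replicate 2. No count at all was held by 95 of the 1382 genes (6.87%), against 3954 of the 19772 protein-coding genes.

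Neighbours that point away from each other without overlapping give a comparison of similar arrangement. The 859 such genes with a gap under 1 kb, chosen as a comparison after the first values were seen, held a median of 4 counts, with 17.0% reaching 10 in both libraries. Genes in head-to-head pairs with an overlap of 1 to 99 bases had a median of 5 (117 genes), and 27.4% of them reached 10 in both libraries. No count at all was held by 8.55% of these genes and by 17.0% of the neighbours. The median was 17.5 from 100 to under 1000 bases (714 genes), 21 from 1000 to under 10000 (414 genes) and 11 at 10000 bases and more (137 genes). Tail-to-tail genes, which overlap at their 3' ends, had a median of 63 (1731 genes), and genes nested one within the other 8 (840 genes). These are medians over genes, which are not replicates, and no test was run between the classes.

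**Figure D1:**
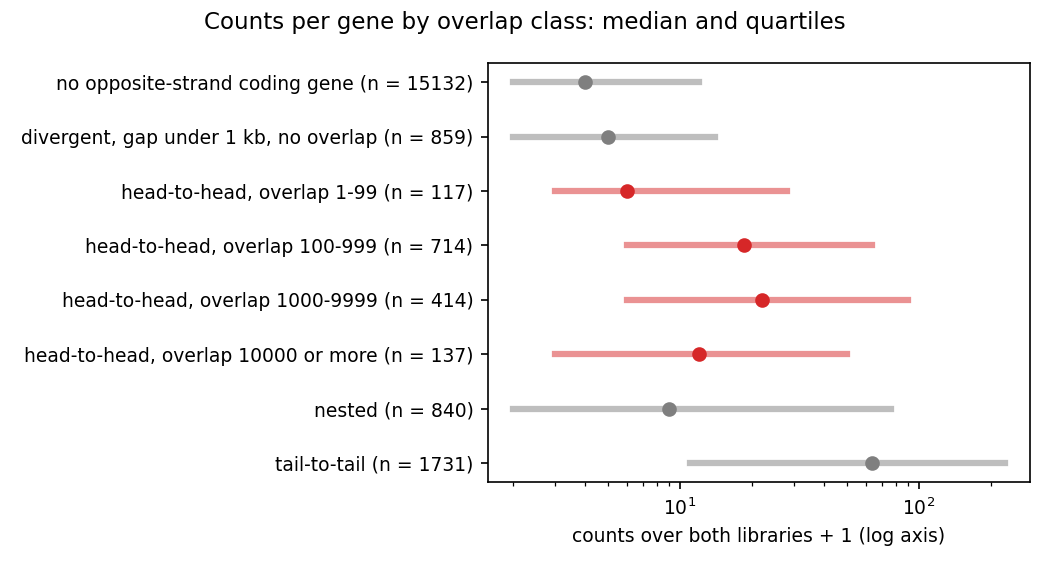
Median (point) and quartiles (bar) of counts per gene over both libraries, plus 1 on a log axis, for classes of protein-coding genes by opposite-strand overlap, with head-to-head genes that met the rule in red by overlap length in bases. The shortest overlaps sit at 5 counts, beside the divergent genes without overlap at 4, and the medians are 17.5 and 21 for the 2 bins from 100 to under 10000 bases.

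Overlap length was then set against the counts of each gene. The overlap of a pair had a median of 728.5 bases, with quartiles of 309.5 and 1876 and a range of 1 to 126460. A side is a gene seen against 1 partner, and the 1730 genes gave 1755 sides, since 25 genes belong to more than 1 pair. Across sides, counts over both libraries had a Spearman rho of 0.051 with the overlap of the spans (0.048 in replicate 1 and 0.053 in replicate 2). With the number of exon bases under the partner's span rho was 0.185, and with the number of exon bases over the partner's exons it was 0.238. The last value was 0.260 for the 1382 sides that met the rule and 0.308 for 845 genes of reciprocal pairs with no other opposite-strand gene of any class over their exons. Total exon length gave 0.156 over all sides. These values are descriptions, since sides share libraries and pairs and longer exons also collect more reads.

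Much of a long overlap was intron on both strands. Exons under the partner's span made up a median of 295 bases per side, 6.69% of the gene's exon length, and exon on exon a median of 136 bases. Sides with 0 bases of exon on exon had a median of 13 counts (345 sides), those with 1 to 99 bases 14 (360 sides) and those with 100 to under 1000 bases 34 (1036 sides). The 14 sides with 1000 bases and more had a median of 118.5, and 13 of them passed 10 counts in each library. ABCB9 had the most exon on exon of the leading pairs, 1590 bases, the whole of its overlap with ARL6IP4.

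**Figure D2:**
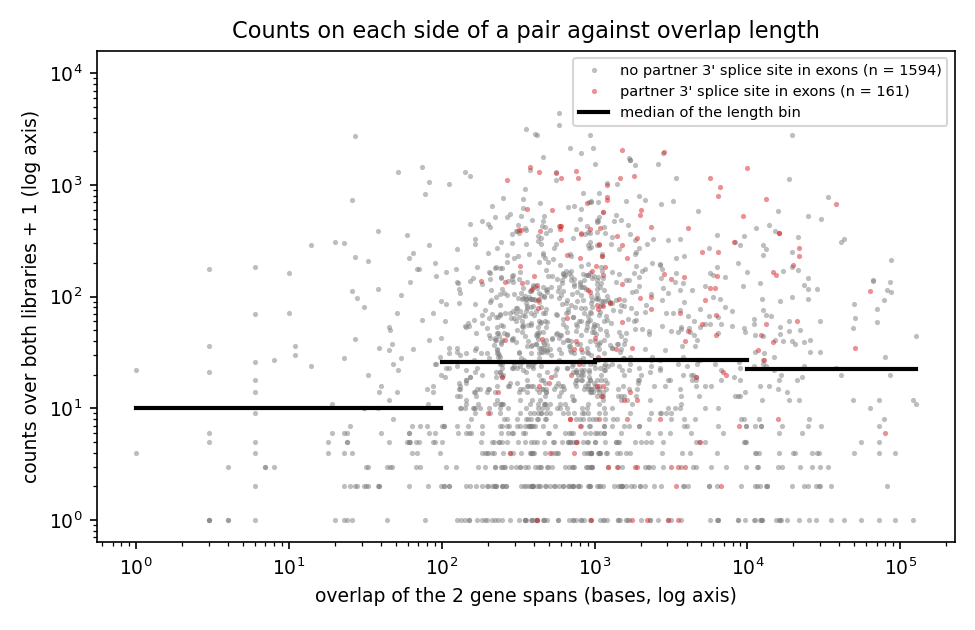
Counts over both libraries plus 1 against overlap of the gene spans in bases, both on log axes, 1 point per side (1755 sides), with sides that carry a partner 3' splice site in their exons in red and black lines for the median of each length bin. The cloud is broad at every length, with medians of 9 below 100 bases, 25 and 26 in the middle bins and 21.5 at 10000 bases and more.

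Counts were next compared by the splice sites of the partner. Sides with a partner 3' splice site in their exons reached a median of 99 counts (161 sides, 43 in replicate 1 and 61 in replicate 2), against 21 for the 1594 sides without one (9 and 12). On the log2 CPM scale the medians lay 2.06 apart, with 2.06 in replicate 1 and 2.15 in replicate 2. Of sides with such a site 71.4% passed 10 counts in each library, and of sides without one 47.3%. Sides with a site also had more exon under the partner, a median of 562 bases against 278. Among sides with at least 500 such bases, a limit set once the values were known, the medians were 112 counts with a site (92 sides) and 33.5 without (412 sides).

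More sites went with higher medians. The median was 21 counts with no site, 66 for 126 sides with 1 site and 260 for 22 sides with 2. It was 409 for 13 sides with 3 or more, a small group. Exon bases under the partner were not compared among these groups. In the 845 genes of reciprocal pairs with no other opposite-strand gene, the medians were 15 with no site, 33 with 1 (63 genes), 192.5 with 2 (8 genes) and 423 with 3 or more (7 genes). The start of the partner's intron was examined in the same way. Sides with only partner 5' splice sites in their exons had a median of 40 counts (541 sides), those with only 3' splice sites 76 (42 sides), those with both 115 (119 sides) and those with neither 16 (1053 sides). Exon under the partner differed among these sets as well, with medians of 467, 325, 685 and 208 bases in that order. Total exon length was longer on sides with only 3' splice sites, a median of 5175 bases against 4379 with only 5' splice sites. Among genes that met the rule the medians were 36.5 counts with only 3' splice sites (28 genes) and 27.5 with only 5' splice sites (424 genes). In reciprocal pairs with no other opposite-strand gene they were 36 (20 genes) and 30 (253 genes). By library they were 19.5 and 12 in replicate 1, and 16.5 and 16 in replicate 2. The part of exon length in these differences was not tested beyond the 500-base setting. There, the 10 sides with only 3' splice sites had a median of 38.5, below the 44 of 248 sides with only 5' splice sites. The 82 with both had 124.5. Among genes that met the rule the order in that setting was the other way, 40.5 (8 genes) against 32 (199 genes).

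**Figure D3:**
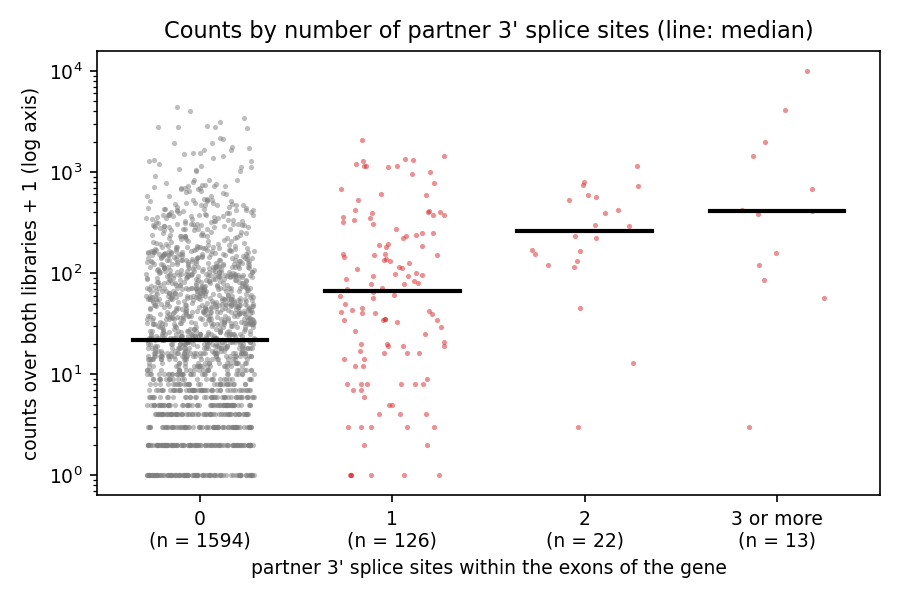
Counts over both libraries plus 1 (log axis) by the number of partner 3' splice sites within the exons of a gene, 1 point per side with random horizontal spread, and a line at the median. Medians are 21, 66, 260 and 409 for 0, 1, 2 and 3 or more sites, and sides without a site reach over 4000 counts.

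MFSD11 and SRSF2 formed the leading pair. MFSD11 encodes a membrane protein of the major facilitator family, and SRSF2 an SR splicing factor whose gene is mutated in myeloid malignancy. They overlap by 1510 bases (chromosome 17, 76735865 to 76737374), and 1106 of those bases are exon in both genes. MFSD11 held 4064 and 5958 counts, 4250 ± 310 CPM (SD, n = 2), and SRSF2, which also overlaps AC005837.2, held 19 and 39, 24.1 ± 7.36 CPM. The microRNA gene MIR636 also lies opposite MFSD11 exons. MFSD11 took 99.5% of the pair's counts in replicate 1 (exact Clopper-Pearson 95% interval 99.3 to 99.7) and 99.3% in replicate 2 (99.1 to 99.5). Exons of MFSD11 covered 3 SRSF2 sites, while exons of SRSF2 covered 1 MFSD11 site.

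**Figure D4:**
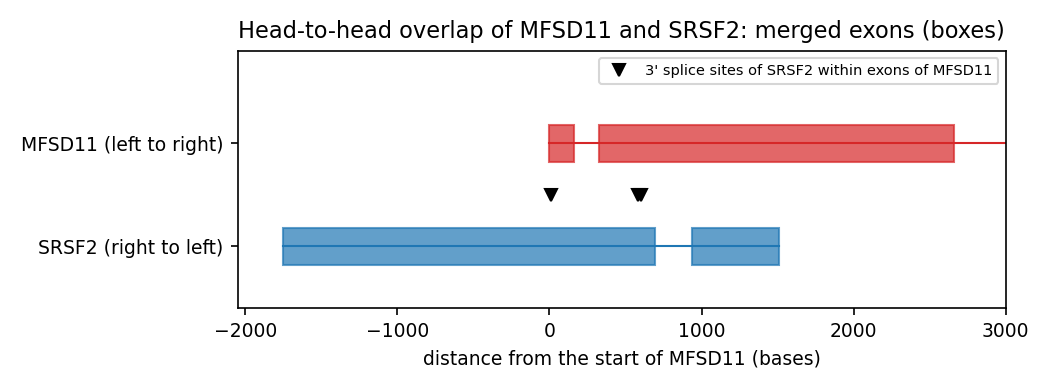
Merged exons (boxes) of MFSD11 and SRSF2 around their overlap, by distance in bases from the start of MFSD11, with triangles at the SRSF2 3' splice sites that lie within MFSD11 exons. The 3 sites stand at 11, 579 and 600 bases, in the first 2 merged exons of MFSD11.

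ABCB9, a lysosomal peptide transporter gene, held 1766 ± 71.9 CPM (SD, n = 2) against 16.9 ± 1.51 CPM for ARL6IP4, a nuclear protein gene. ABCB9 also overlaps OGFOD2. Counts are given per whole gene, so for no pair can they be placed in the head-to-head overlap. Of the 12 pairs with the most CPM over both genes, 9 had a leading gene with a further opposite-strand coding gene as well. ZNF276 (1890 ± 7.40 CPM) also lies opposite FANCA, TSPAN31 (1725 ± 101) opposite CDK4, NDUFB9 (1340 ± 21.4) opposite MTSS1, UBXN11 (1212 ± 21.6) opposite SH3BGRL3, UTP23 (1192 ± 81.0) opposite RAD21, KLC1 (1181 ± 69.1) opposite XRCC3, MMACHC (1157 ± 27.7) opposite PRDX1 and SQSTM1 (557 ± 1.86) opposite MRNIP, each as mean CPM ± SD over 2 libraries. The overlap of MMACHC with CCDC163 is 27 bases, and CCDC163 held 0 and 1 counts.

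The leading genes with no further coding partner were MFSD11, SOD2 and CCDC18. SOD2, the mitochondrial superoxide dismutase gene, held 1153 and 1619 counts opposite WTAP, a subunit of the RNA methylation complex. WTAP held 112 and 140 over an overlap of 19602 bases. A further annotated gene that is also named SOD2 lies opposite WTAP exons, and the counts given are those of 1 SOD2 entry. CCDC18, a coiled-coil protein gene, held 838 and 1097 opposite TMED5, a secretory pathway gene, which held 267 and 339, and the antisense gene CCDC18-AS1 lies over its exons too. In the ZNF276 pair the lower side was also high: VPS9D1, whose only coding partner is ZNF276, held 1401 and 2013 counts over an overlap of 587 bases with 2 bases of exon on exon, and the antisense gene VPS9D1-AS1 lies over its exons. KLC1 with BAG5, at 1141 and 1639 against 11 and 13 counts, was among the 3 most uneven of the pairs with both genes at 10 counts or more in each library, together with the pairs of MFSD11 and ABCB9.

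Reciprocal pairs with no other opposite-strand gene over either gene's exons were taken apart from the rest. Overlapping genes on the same strand were not looked for. This set was chosen after the first values were seen. ENO3, the muscle enolase gene, held 973 and 1164 counts, and PFN1, the profilin gene opposite it, held 6 and 7. FTSJ3, an rRNA methyltransferase gene, held 841 and 1133, and PSMC5, a proteasome ATPase gene, held 58 and 99. Both replicates thus put over 90% of each of these pairs on the same side.

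FAXDC2 held 705 and 955 counts, against 5 and 8 for CNOT8, a deadenylase gene. SLC9A5, a sodium-proton exchanger gene, held 629 and 802, and FHOD1, a formin gene, 60 and 106. SSR4, of the translocon-associated complex, held 673 and 857, and IDH3G, an isocitrate dehydrogenase subunit gene, 8 and 14. SLC26A1, a sulfate transporter gene, held 359 and 432 while IDUA, the lysosomal iduronidase gene, held 0 in both libraries, which makes SLC26A1 at least 119.7-fold higher in replicate 1 and at least 144-fold higher in replicate 2 against a floor of 3 counts per library.

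The number of partner sites did not settle which side led in every pair. SLC9A5 covered 4 FHOD1 sites and FTSJ3 covered 3 PSMC5 sites, yet PSMC5 covered 4 FTSJ3 sites and was the lower side. ENO3 and SSR4 covered no site of their partners. CNOT8 covered 1 FAXDC2 site and held 5 and 8 counts. BCS1L, a respiratory complex III assembly gene, covered 5 ZNF142 sites and held 288 and 398 counts, against 17 and 14 for ZNF142. DXO, a decapping enzyme gene, and STK19 were nearly even at 359 and 414 against 306 and 429, and the higher side differed between the replicates.

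**Figure D5:**
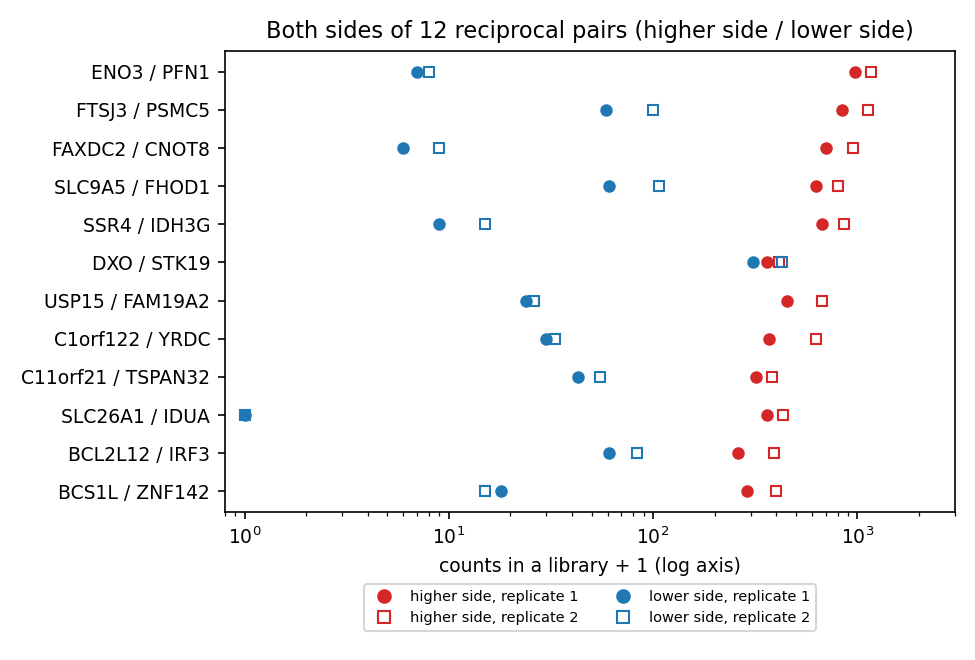
Counts plus 1 (log axis) of the higher side (red) and lower side (blue) in replicate 1 (filled circles) and replicate 2 (open squares) for the 12 reciprocal pairs with the most CPM and no other opposite-strand gene. In all of them but DXO and STK19 the same gene is higher in both libraries.

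Across 873 pairs with both rows, 229 had both genes at 10 counts or more in each library, 408 had 1 gene and 236 had neither. Counts on the 2 sides had a Spearman rho of 0.073 (504 reciprocal pairs: 0.162), a description over pairs that share libraries. Of 574 pairs with at least 20 counts in each library, the same gene was higher in both replicates in 551. The higher side held a median of 90.8% of a pair's counts (90.7% in replicate 1 and 91.1% in replicate 2), a value that taking the higher side keeps at 50% or above. Over 90% stood on 1 side in 297 of the 551.

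Among 92 of those 551 pairs in which a single side covered a partner 3' splice site, that side was the higher one in 66 (71.7%), and in the reciprocal pairs in 32 of 49 (65.3%). The side with more exon under the partner was the higher one in 215 of 444 pairs (48.4%). The side with the longer total exon was the higher one in 318 of 551 (57.7%). No test was run on these shares.

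The pairs with the longest and shortest overlaps were named only where a gene had 10 counts or more in each library. That limit leaves out pairs with few counts, so these pairs do not show how counts change with overlap length. The longest overlap with a gene at 10 counts in each library was 126460 bases, between SOX6, a transcription factor gene of erythroid cells, with 20 and 23 counts, and C11orf58, with 4 and 6. RUNDC3B held 51 and 84 counts over 85776 bases opposite ABCB1, a drug efflux transporter gene with 8 and 11, and AMMECR1 held 58 and 55 opposite RTL9 with 1 and 0. ALDH1A2, a retinoic acid synthesis gene that also overlaps AQP9, held 86 and 128 opposite LIPC with 51 and 58, and KLHL28 13 and 15 opposite TOGARAM1 with 2 and 3. MFSD11, with an overlap of 1510 bases, held the most counts of all 19772 protein-coding genes, so its level is no measure for these pairs.

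At the short end, ATP5F1A, an ATP synthase subunit gene, held 10 and 25 counts opposite HAUS1 with 0 and 0, over 3 bases. ACYP2 held 89 and 88 opposite PSME4 with 5 and 15, also over 3 bases, and also lies opposite TSPYL6. DUOX1, an oxidase gene, held 83 and 99 opposite DUOXA1 with 0 and 0 over 6 bases, and lies opposite the non-coding gene AC051619.6. SLC25A25, a mitochondrial carrier gene, held 26 and 43 opposite NAIF1 with 2 and 2 over 6 bases, with the antisense RNA SLC25A25-AS1 on the other strand. BLOC1S1-RDH5, a read-through gene, held 13 and 13 over 8 bases opposite ITGA7. Of these, ATP5F1A and BLOC1S1-RDH5 had no further opposite-strand gene over their exons.

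Pairs with 0 counts on both genes were few, 6 of 873. The longest overlaps among them were WFDC13 and WFDC10B (3004 bases), GPX5 and GPX6 (2291 bases), and BGN and HAUS7 (578 bases). SLX1B with BOLA2 and SLX1A with BOLA2B are near-identical copies, and multimapping reads were not counted for any gene, which leaves their 0 uncertain. The most even pairs with both genes at 10 counts or more in each library were MPC2 and DCAF6, with 35 and 52 against 42 and 44, RAB11A and DENND4A, with 64 and 75 against 53 and 83, and DERL2 and MIS12, with 18 and 24 against 20 and 21. In each the higher side differed between replicates.

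Members were also read by gene group, as shares at 10 counts or more in each library, where 49.3% of all 1730 genes passed. The percentage in brackets after each count is the share passing among all protein-coding genes of that list. Of 21 DNA repair and checkpoint genes 13 passed (37.4%), with a median of 41 counts over both libraries. RECQL5, a helicase gene, held 617 ± 31.1 CPM (SD, n = 2) and also overlaps SMIM5 and SMIM6, and DDB1, of the damage-binding and ubiquitin ligase complex, held 225 ± 13.3 CPM opposite TKFC and covered 2 of its sites. Centrosome and cilium genes had 27 of 42 passing (34.3%) and a median of 38, led by WDR83 at 658 ± 21.0 CPM and CENPP at 514 ± 30.8 CPM, both with further coding partners. Aminoacyl-tRNA synthetase genes had 7 of 10 (36.8%) and a median of 128, led by HARS at 162 ± 11.7 CPM, which covered 3 sites of HARS2, the mitochondrial form of the same enzyme, and also overlaps WDR55, and CARS2 at 158 ± 24.4 CPM opposite ING1.

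Zinc finger genes had 15 of 26 passing (24.5%) and a median of 31.5, and below ZNF276 came ZSCAN31, at 151 CPM in both libraries opposite ZKSCAN3. Ubiquitin and proteasome genes had 24 of 46 (26.8%) and a median of 29, led by USP15, a deubiquitinase gene, at 476 ± 41.9 CPM, and USP39, which also overlaps C2orf68, at 262 ± 8.93 CPM. Genes of the mitochondrial ribosome, respiration and import had 24 of 47 (30.8%) and a median of 25, with ATP5S, which also overlaps CDKL1, second at 223 ± 13.7 CPM. Membrane transport genes had 36 of 78 (26.9%) and a median of 19.5, led by ABCB9 and SLC9A5. Chaperone genes had 8 of 18 (33.0%) and a median of 19.5, led by DNAJB1, a heat-shock cochaperone gene, at 121 ± 8.81 CPM, and DNAJC17, which also overlaps C15orf62 and GCHFR, at 53.8 ± 4.54 CPM.

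Splicing and RNA helicase genes had 10 of 28 passing (28.4%) and a median of 18, led by DDX5, a DEAD-box helicase gene, at 305 ± 19.2 CPM opposite CEP95, and PRPF31, a tri-snRNP protein gene, at 87.2 ± 4.03 CPM opposite TFPT. Genes of RNA polymerase and general transcription had 7 of 19 (23.4%) and a median of 8, led by TAF1D at 139 ± 7.15 CPM and SUPT7L at 103 ± 11.2 CPM, both with further coding partners. The only member among 44 erythroid and megakaryocyte genes was GP1BA, at 310 ± 0.232 CPM opposite CHRNE, an acetylcholine receptor subunit gene. Groups are given by counts alone, and no difference between them was tested.

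The 2 libraries were compared last. Of 8983 genes that reached 10 counts in both, an exact two-sided binomial test at the scaled library sizes called 45 after Benjamini-Hochberg adjustment (0.501%), and 5 of the 853 members tested were among them, with 65 of the 853 at an unadjusted p below 0.05 against 769 of the 8983. MFSD11 was 1.11-fold higher in replicate 2 (adjusted exact p = 0.000195), CCDC39 1.21-fold (747 and 1198 counts, adjusted exact p = 0.0104) and C1orf122 1.28-fold (370 and 628 counts, adjusted exact p = 0.0309). CREB3, a transcription factor gene, was lower in replicate 2 with a ratio of 0.598 (124 and 98 counts, adjusted exact p = 0.0320), as was SMIM10L1 with 0.686 (216 and 196 counts, adjusted exact p = 0.0337). Counts of the 853 members had a Spearman rho of 0.963 between the libraries. It sets 1 library against the other within a single group, and its p-values allow for counting error alone.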

How the data were processed

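U2AF2 eCLIP was measured in 2 libraries of HEL cells. The submitters' processing notes name STAR 2.7.0f, cutadapt and the build GRCh38.p10. The table the authors deposited holds raw counts per gene as whole numbers, with 4 tallies that name no gene and stayed out of library sizes. Reads on no feature were 62.7% of all reads in replicate 1 and 63.6% in replicate 2, ambiguous reads 0.0307% and 0.0301%, multimapping reads 22.1% and 20.7%, and unmapped reads 13.5% and 14.0%. Of uniquely mapped reads, only 2.66% in replicate 1 and 2.60% in replicate 2 were counted for a gene. Duplicate removal, strand setting and annotation release are not given in the sources used here. Any remaining PCR duplicates would narrow the counting intervals wrongly.

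Rows were joined to GENCODE 29 (GRCh38) through unversioned Ensembl identifiers. Its exons, merged over all transcripts, gave overlaps and splice sites, and the authors' own annotation may differ. Library sizes were scaled by TMM in edgeR 4.0.16 (R 4.3.3) over genes that reached 10 counts in both libraries, giving factors of 1.01 and 0.987. The prior count for log2 CPM was 2. With 1 group no replicated test existed, so edgeR's quasi-likelihood test was not used. The exact binomial test between libraries was run on counts simulated with counting error alone. That check therefore cannot show how the test behaves with further variation between libraries. Python 3.11.15, numpy 2.4.6, pandas 2.3.3, scipy 1.17.1 and matplotlib 3.10.9 were used, and DESeq2 1.42.0 gave alternative size factors.

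Members, gene lists and tests were chosen with earlier results of these data known. Named were the 12 pairs with the most CPM, the 5 longest and 5 shortest overlaps among pairs with a gene at 10 counts or more in each library, the 3 most even and 3 most uneven pairs with both genes at that level, the 5 longest overlaps at 0 counts, members called between replicates and the 2 highest genes of each of 11 lists. Alternatives covered the count minimum, scaling, prior count, splice-site window, overlap measure, member set and each library left out.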

Additional observations from a re-analysis of the deposited data

How the results depend on the processing

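Of the members, 853 held 10 counts in each library, 372 held 50, 446 did so in reciprocal pairs only, and 880 to 975 passed with 1 replicate left out. Their median, 12 counts per library, was 7.50 with no other opposite-strand gene over the exons, 8.50 in genes that met the rule themselves (chosen after the data were seen) and 10 to 14 with 1 replicate left out. The rho of counts with overlap length, 0.051, was 0.185 with exon bases under the partner span, 0.238 with exon bases under the partner exons, 0.027 per kb of exon, 0.078 with no other opposite-strand gene, 0.071 with at least 1 count, 0.065 in genes that met the rule and 0.048 to 0.053 with 1 replicate left out. The difference by partner 3' splice site, 2.06 log2 CPM, was 2.22 with a prior count of 0.5, 2.31 with a window of 100 bases, 1.93 in reciprocal pairs, 1.74 with no other opposite-strand gene, 1.62 with 500 exon bases under the partner (chosen after the data were seen) and 2.06 to 2.15 with 1 replicate left out. Between the replicates, 71 genes and 3 members were called with at least 1 count in either library, against 45 and 5. The share of a pair on its higher side was 90.7 to 91.1% with 1 replicate left out. The difference by partner 3' splice site and the rho with overlap length kept their sign in these settings. Leaving out a library changed which gene was higher in DXO with STK19, MPC2 with DCAF6, RAB11A with DENND4A and DERL2 with MIS12. With 500 exon bases under the partner, sides with only 3' splice sites had a lower median than sides with only 5' splice sites, 38.5 against 44, where all sides had 76 against 40. Genes that met the rule did not change order in that setting, with 40.5 (8 genes) against 32 (199 genes). Among 129 named genes, leaving out a library moved the CPM by over 1.5 times in 10 settings, for CCDC163, CD52, ITGA7, PSME4, RFNG and RTL9, the lower sides of their pairs. The test between replicates needs both libraries and has no value without one. No paired analysis was possible because there is 1 group. Depth limits genes near 3 counts, and the unknown strand setting limits what any count says about a single gene.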
